A study of Mus musculus with 4 samples.

Results

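The *Hox* cluster genes encode homeodomain transcription factors and lie side by side in the HoxA, HoxB, HoxC and HoxD clusters on separate chromosomes. They were taken here as every gene whose array symbol is Hox followed by a cluster letter and a number, read by a probe set that names no other gene. This rule was met by 37 of the 19938 genes so named on the array (10 HoxA, 9 HoxB, 9 HoxC and 9 HoxD genes), each with 1 probe set. *Hoxb8* was read only by a probe set shared with *Hoxb7* and was left out.

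The arrays were of ILC87-Ik1-ER cells, a T-cell line grown from the thymic tumour of an Ikaros f/f Lck-cre+ mouse (strain label C57BL/6), in which Lck-cre deletes Ikaros in developing T cells. The paper describes such mice as of mixed background, so that the strain label need not give all of it. The cells carried the MigR1:Ik1-ER retrovirus, which drives GFP and Ik1-ER, a fusion of Ikaros-1 with the part of the estrogen receptor that takes up its ligand, and GFP-positive cells were sorted. 2 samples received 100 nM 4OHT (4-hydroxytamoxifen), the ligand of the fusion protein, for 24 h, and 2 received the ethanol vehicle (EtOH) for 24 h. All 4 samples thus shared the deletion and the retrovirus and came from 1 line, and no array of 4OHT-treated cells without Ik1-ER was analysed, so that an effect of 4OHT itself and one of Ikaros cannot be told apart. Nothing in the labels says that the 2 samples of a treatment came from separate cultures, and p-values then measure only the spread between these samples. A change in RNA per cell and a change in the number of cells that express a gene cannot be told apart in such bulk samples.

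Log2 values, which the authors normalized with RMA, were available for 35556 probe sets. The median of an array was 7.16 and 7.11 in 4OHT cells and 7.12 and 7.11 in EtOH cells, and arrays of the same treatment correlated at 0.994 (4OHT) and 0.996 (EtOH), against 0.989 to 0.990 between treatments. The T-cell label was borne out by the markers: all 10 of 12 listed T-cell markers that were measured lay above the array median by their mean, with a median per array of 12.0 to 12.1 in 4OHT cells and 12.3 in EtOH cells. None of the measured B-cell (5), myeloid (6), stem and progenitor (5) or erythroid (4) markers did by their mean over the 4 arrays, whereas 4 of 6 mesenchymal markers did. *Itgam* lay above the array median on both 4OHT arrays (7.26 and 7.28, against 6.62 and 6.56 in EtOH cells), and *Kit* did on both EtOH arrays (6.83 and 6.90 in 4OHT cells, against 7.20 and 7.21 in EtOH cells). 4 of these 36 markers passed the test described below, in which 1.23% of all genes were called higher and 2.99% lower. *Itgam* rose (log2 fold change 0.68), and *Cd3d* (−0.94), *Lyz2* (−1.24) and *Pdgfrb* (−1.92) fell. The part of these shifts in the *Hox* values was not tested.

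*Hox* genes give cells their position along the head-to-tail axis of the embryo. Within a cluster, genes of low paralogue number lie at one end and act towards the head, and genes of high number lie at the other end and act towards the tail, in the limbs and in the genital bud. HOX proteins bind DNA together with TALE homeodomain partners of the PBX, MEIS and PKNOX families. The clusters are textbook targets of Polycomb repressor complexes, which set and read H3K27me3, and of the opposing MLL histone methyltransferases. In blood, several HoxA and HoxB genes are active in stem and progenitor cells and are turned down as cells mature, and persistent HoxA expression is known from human and mouse leukemias.

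The clusters also encode microRNAs that target *Hox* transcripts, and 2 families share their seeds across clusters. They are shown, from RefSeq (GRCm38.p6), since *Mir10b* lies next to *Hoxd4* and had one of the larger differences among the RNA genes of the clusters. The mature sequences read 5′ to 3′, and capitals mark the seed (bases 2 to 8):
mmu-miR-10a-5p: uACCCUGUagauccgaauuugug
mmu-miR-10b-5p: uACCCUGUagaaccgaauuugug
mmu-miR-196a-5p: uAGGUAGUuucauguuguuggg
mmu-miR-196b-5p: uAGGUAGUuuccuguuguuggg
*Mir10a* (HoxB) and *Mir10b* (HoxD) share one seed, and the *Mir196* genes of HoxA, HoxB and HoxC share the other. Their array probe sets read the miRNA gene and need not report the mature RNA.

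Ikaros binds DNA at sequences with a GGAA core. The 250 bases upstream of the annotated start are shown for the 2 HoxD genes with the clearest differences in opposite directions, *Hoxd8* and *Hoxd10*, with AGGAA and GGGAA, searched on both strands, in capitals (the motifs share GGAA and cannot match at the same base). The *Hoxd8* window is chr2:74704365-74704614 and the *Hoxd10* window chr2:74691641-74691890, both on the plus strand (RefSeq, GRCm38.p6):
Hoxd8: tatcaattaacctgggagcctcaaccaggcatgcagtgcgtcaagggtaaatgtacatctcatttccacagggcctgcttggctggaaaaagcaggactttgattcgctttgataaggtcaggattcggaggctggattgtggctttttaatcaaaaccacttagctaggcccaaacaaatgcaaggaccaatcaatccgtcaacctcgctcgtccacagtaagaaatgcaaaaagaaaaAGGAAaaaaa
Hoxd10: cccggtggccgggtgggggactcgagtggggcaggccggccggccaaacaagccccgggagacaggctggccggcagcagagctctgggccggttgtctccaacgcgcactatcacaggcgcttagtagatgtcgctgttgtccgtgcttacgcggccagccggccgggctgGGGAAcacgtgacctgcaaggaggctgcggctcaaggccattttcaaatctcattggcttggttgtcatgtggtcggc
The *Hoxd8* window, of 44.4% GC, held 1 AGGAA, which began 10 bases upstream of the start, and no GGGAA. GGAA cores after other bases were not marked or counted, and this window also held TGGAA. The *Hoxd10* window, of 65.6% GC, held 1 GGGAA, 78 bases upstream, and no AGGAA. Such matches are common: AGGAA stood in 60.3% and GGGAA in 56.2% of all 32851 windows of this length. Among the 24 windows that matched a *Hox* gene, which cover 22 genes, 12 held AGGAA and 15 held GGGAA.

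Most *Hox* probe sets had low values in both treatments. Of the 37 genes, 5 had a mean log2 value above the array median of 7.13 (the mean over the 4 arrays), and the median *Hox* level was 6.23, with a range of 4.91 to 8.11, while the median over all genes was 7.30. The median *Hox* level was 6.28 in 4OHT cells and 6.15 in EtOH cells. The values carry no detection calls, and a log2 value also depends on the probes, so that the order of genes by level is not an order of mRNA abundance. The plot of levels by cluster shows each gene beside the array median.

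**Figure D1:**
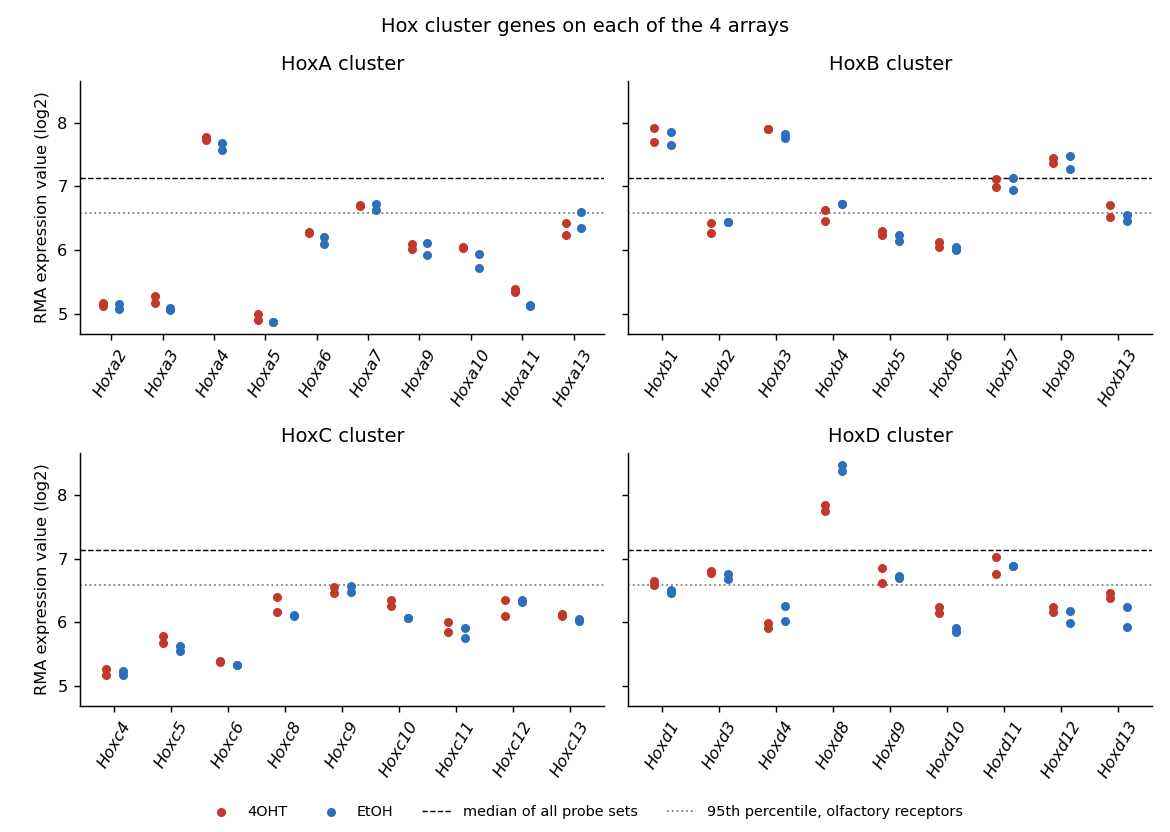
RMA log2 value of each *Hox* gene on each array, 1 point per array (2 4OHT and 2 EtOH), in 1 panel per cluster, with the median of all probe sets (dashed) and the 95th percentile of the olfactory receptor genes (dotted). *Hoxd8*, *Hoxb3*, *Hoxb1*, *Hoxa4* and *Hoxb9* lie above the median of 7.13 on all 4 arrays, and no HoxC gene does.

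As a gauge of how high probe sets of a gene family reach that T cells are not known to use, the same levels were taken for 1015 olfactory receptor genes. Their median was 4.80, their 95th percentile 6.59 and their highest mean 9.23. 11 of the 37 *Hox* genes lay above that 95th percentile, namely 2 of HoxA, 5 of HoxB, none of HoxC and 4 of HoxD, and none lay above the highest olfactory receptor. Of all 19938 genes, 12493 lay above that percentile, as did 39 of 59 measured homeobox genes outside the clusters. So did some markers of other blood cells (erythroid 3 of 4, myeloid 3 of 6, stem and progenitor 2 of 5, B-cell 1 of 5). With such an overlap, a level below 6.59 cannot be set apart from background by these arrays, and a level above it does not by itself show expression.

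HoxB had the most genes above the array median (3 of 9), with a cluster median of 6.64. *Hoxb3*, active in the hindbrain and in blood progenitors, read 7.90 and 7.90 in 4OHT cells, against 7.76 and 7.82 in EtOH cells (log2 fold change 0.11 ± 0.071 (SE), limma adjusted p = 0.475). Both 4OHT arrays were the higher ones, by little more than the gap between the EtOH arrays. *Hoxb1*, which sets the identity of a hindbrain segment that forms facial motor neurons, read 7.92 and 7.70 in 4OHT cells, against 7.85 and 7.66 in EtOH cells (0.058, limma adjusted p = 0.829). *Hoxb9*, which acts in thoracic patterning, read 7.36 and 7.45 in 4OHT cells, against 7.47 and 7.28 in EtOH cells (0.034, limma adjusted p = 0.884). For *Hoxb1* and *Hoxb9* the arrays of the treatments overlapped.

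HoxA, the cluster best known from leukemia, had a median of 5.98, and 1 of its 10 genes lay above the array median. *Hoxa4*, which patterns the neck region, read 7.73 and 7.78 in 4OHT cells, against 7.68 and 7.57 in EtOH cells (0.13 ± 0.079, limma adjusted p = 0.452). *Hoxa7*, a trunk gene, read 6.72 and 6.70 in 4OHT cells, against 6.72 and 6.63 in EtOH cells (0.030, limma adjusted p = 0.864). *Hoxa9* and *Hoxa10*, the leukemia-associated members, had mean levels of 6.06 and 6.04 in 4OHT cells, against 6.02 and 5.82 in EtOH cells, both under the olfactory receptor limit. Of the 10 HoxA genes, *Hoxa4* and *Hoxa7* were the ones above that limit.

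HoxC had a median of 6.07 and no gene above the array median or the olfactory receptor limit. *Hoxc9*, which sets the thoracic identity of motor neurons, read 6.46 and 6.55 in 4OHT cells, against 6.57 and 6.47 in EtOH cells (−0.017, limma adjusted p = 0.932). *Hoxc12*, a gene of the tail end of the cluster, read 6.09 and 6.35 in 4OHT cells, against 6.32 and 6.35 in EtOH cells (−0.11, limma adjusted p = 0.628). The treatments overlapped for both. HoxD had a median of 6.55 and 1 gene above the array median, *Hoxd8*.

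*Hoxd8*, a central HoxD gene active in the trunk and the developing gut, was lower in 4OHT cells and was the one *Hox* gene to pass the test across all probe sets. It read 7.75 and 7.84 in 4OHT cells, against 8.48 and 8.38 in EtOH cells. Both 4OHT arrays lay below both EtOH arrays, and the smallest gap between treatments, 0.54, exceeded the gaps of 0.084 between the 4OHT arrays and 0.096 between the EtOH arrays. The means were 7.80 ± 0.060 in 4OHT cells and 8.43 ± 0.068 in EtOH cells (SD, n = 2 each), a log2 fold change of −0.63 ± 0.081 (SE), or a 1.55-fold lower value (limma, Benjamini-Hochberg adjusted over all probe sets, adjusted p = 0.036). *Hoxd8* read above the olfactory receptor limit of 6.59 on all 4 arrays. The call did not hold without any 1 of the 4 arrays (adjusted p = 0.0956 to 0.199, log2 fold change −0.68 to −0.58) or with the replicate number as a block (adjusted p = 0.112). With 2 arrays a treatment, the smallest two-sided p that an exact permutation could reach is 0.33.

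1 of 37 *Hox* genes called lower, or 2.70%, is close to the 2.99% of all genes that were called lower, and no *Hox* gene was called higher, against 1.23% of all genes. At an unadjusted p under 0.05, 1 *Hox* gene was lower (11.7% of all genes) and 4 were higher (8.74% of all genes). In 16 *Hox* genes (43.2%) both 4OHT arrays lay above both EtOH arrays, against 32.1% of all genes, and in 4 (10.8%) both lay below, against 24.5% of all genes. Among the 9994 genes whose mean lay within the range of the *Hox* genes, these shares were 40.6% and 13.8%, so that the *Hox* shares differed little from those of genes at like levels.

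**Figure D2:**
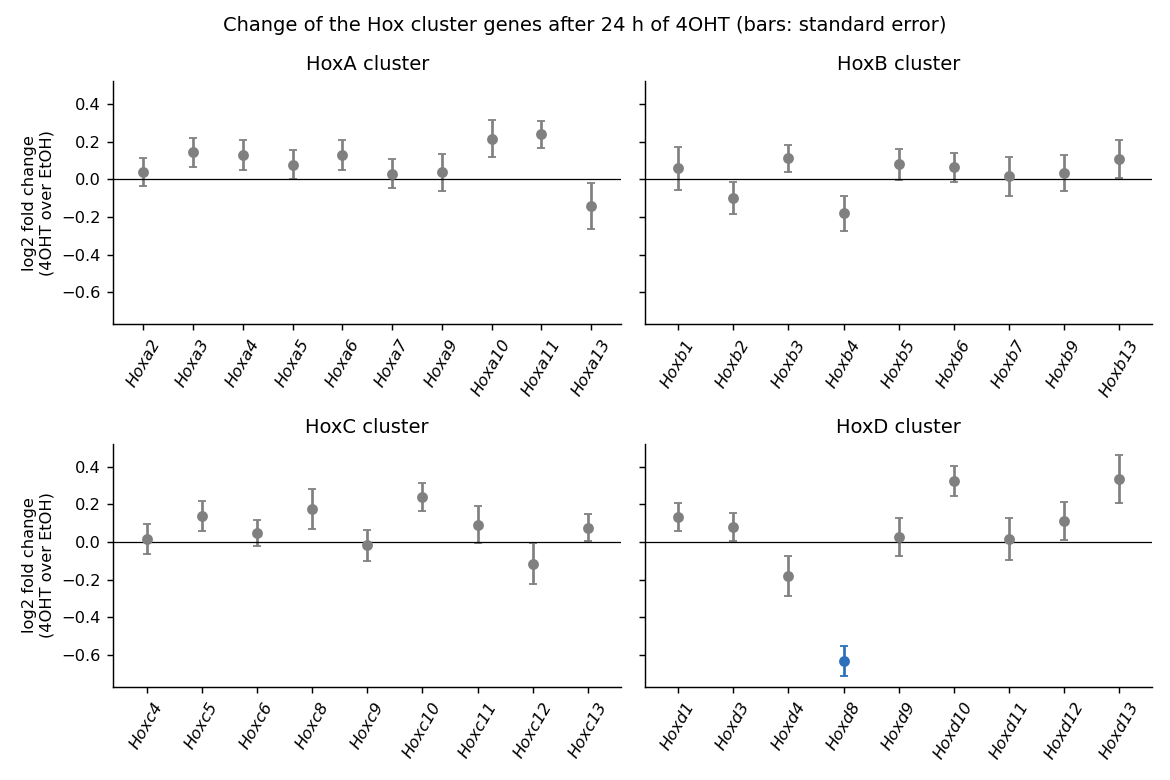
Log2 fold change (4OHT over EtOH) of the 37 *Hox* genes, in 1 panel per cluster and in the order of paralogue numbers, with standard errors from limma as bars and the called gene in blue. *Hoxd8* stands at −0.63, and the other 36 genes lie between −0.18 and 0.34.

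The *Hox* genes other than *Hoxd8* had small differences, from −0.18 to 0.34. All 37 genes were tested with no filter on low values, and 9 of them had a mean under 6. 30 of the 37 log2 fold changes were positive and 7 negative, with a median of 0.077, whereas the median over all genes was 0.031. This split depended on scaling and on single arrays: it was 24 to 13 after another quantile normalization (median 0.029), 27 to 10 with equal array medians (0.055), and 25 to 12 both without 4OHT replicate 2 (0.040) and without EtOH replicate 2 (0.045). Of all genes, 57.7% were positive, and of the genes within the *Hox* range of levels 71.9% were, with a median of 0.073. The olfactory receptor genes had 72.6% positive values and a median of 0.067. The median was 0.10 in HoxA, 0.058 in HoxB, 0.077 in HoxC and 0.080 in HoxD.

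By paralogue group, the 4 genes with an unadjusted p under 0.05 (limma) and a higher value in 4OHT cells were among the 16 genes of groups 9 to 13, the tail end of the clusters. Of all genes 8.74% met this threshold with a higher value, as did 899 of the 9994 genes at *Hox*-like levels. Whether these *Hox* genes differ from the others by position was not tested. *Hoxd13*, which patterns the digits and the genital bud, read 6.38 and 6.46 in 4OHT cells, against 6.24 and 5.92 in EtOH cells (0.34 ± 0.128 (SE), limma adjusted p = 0.268). *Hoxd10*, which patterns lumbar motor neurons and the hindlimb, read 6.14 and 6.25 in 4OHT cells, against 5.84 and 5.90 in EtOH cells (0.32 ± 0.079, limma adjusted p = 0.128). In both genes the 4OHT arrays were the higher ones, but for *Hoxd13* the EtOH arrays differed by 0.32 between themselves, and its log2 fold change was 0.50 when EtOH replicate 1 was left out and 0.18 when EtOH replicate 2 was. *Hoxa11*, needed for forearm, kidney and uterus, read 5.39 and 5.35 in 4OHT cells, against 5.13 and 5.14 in EtOH cells (0.24 ± 0.071, limma adjusted p = 0.182). The fourth, *Hoxc10*, averaged 6.30 in 4OHT cells and 6.07 in EtOH cells (0.24, limma adjusted p = 0.204). All of these levels lay below the olfactory receptor limit. *Hoxd10* alone of these 4 passed when only probe sets with 1 gene symbol were tested (limma adjusted p = 0.0257). In that setting 2938 of all 21789 probe sets passed, against 1123 of 35556 in the main comparison.

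No gene of the tail-end groups was called. Of the 16 genes of groups 9 to 13, 13 (81.25%) had a positive value, much like the 81.1% over all 37 *Hox* genes. The median log2 fold change was 0.085 over the 16 genes of groups 9 to 13, 0.055 over the 14 of groups 4 to 8 and 0.080 over the 7 of groups 1 to 3. *Hoxd11*, which acts with *Hoxa11* in the forearm, read 6.76 and 7.03 in 4OHT cells, against 6.88 and 6.88 in EtOH cells (0.017, limma adjusted p = 0.951). *Hoxa13*, the HoxA counterpart of *Hoxd13*, averaged 6.33 in 4OHT cells and 6.47 in EtOH cells, on the other side of 0.

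The next lowest fold changes after *Hoxd8* were those of paralogue group 4. *Hoxd4*, a gene of the hindbrain and neck, read 5.91 and 5.99 in 4OHT cells, against 6.25 and 6.02 in EtOH cells (−0.18 ± 0.106, limma adjusted p = 0.431). *Hoxb4*, known to expand blood stem cells when overexpressed, read 6.64 and 6.45 in 4OHT cells, against 6.72 and 6.73 in EtOH cells (−0.18 ± 0.091, limma adjusted p = 0.375). The 4OHT arrays were the lower ones in both, with a gap to the nearest EtOH array that was smaller than the gap within one of the treatments. The *Hoxd4* value became −0.067 when EtOH replicate 1 was left out and −0.30 when EtOH replicate 2 was, and the *Hoxb4* value −0.091 without 4OHT replicate 2. The other group 4 genes, *Hoxa4* and *Hoxc4*, had positive values of 0.13 and 0.016.

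**Figure D3:**
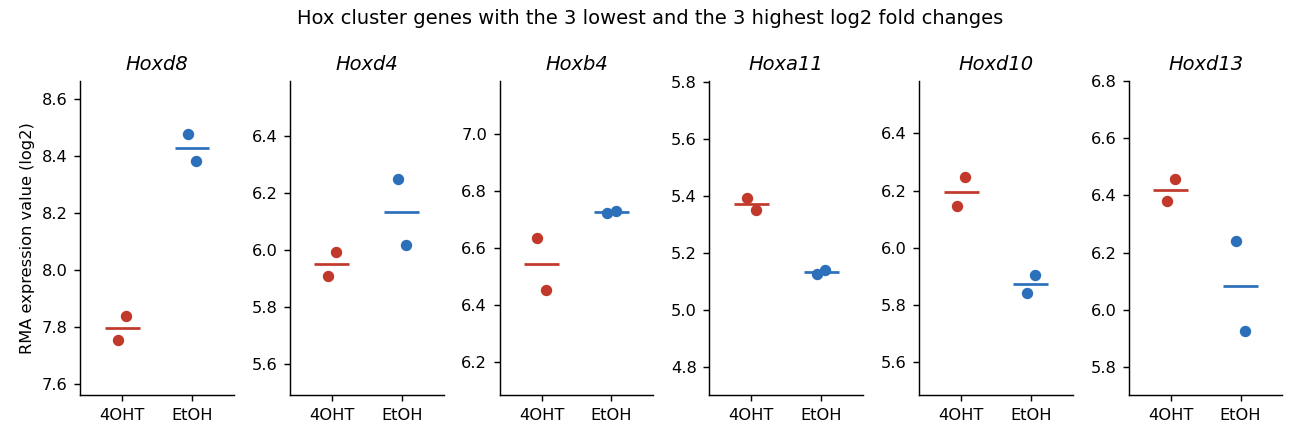
RMA log2 value on each array, 1 point per array with the treatment mean as a line, for the *Hox* genes with the 3 lowest and the 3 highest log2 fold changes (each panel has its own range of the axis). In *Hoxd8* the 4OHT arrays lie at 7.75 and 7.84 and the EtOH arrays at 8.48 and 8.38, while in *Hoxd4* a 4OHT and an EtOH array nearly touch (5.99 and 6.02).

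The HoxD genes were ordered by their RefSeq start coordinates alone, from the group 1 end. This placed *Hoxd4* before *Hoxd3*, against their paralogue numbers, so that it need not be the order of the gene bodies. The log2 fold changes were 0.13 at *Hoxd1*, −0.019 at *Haglr*, −0.30 at *Mir10b* and −0.18 at *Hoxd4*, then 0.080 at *Hoxd3*, −0.42 at *Hoxd3os1* and −0.63 at *Hoxd8*. Past *Hoxd8* they were 0.027 at *Hoxd9*, 0.32 at *Hoxd10*, 0.017 at *Hoxd11*, 0.11 at *Hoxd12* and 0.34 at *Hoxd13*. Among all these genes *Hoxd8* alone was called. The values near 0 have no settled sign: *Hoxd9* and *Hoxd11* lay at −0.020 and −0.020 after another quantile normalization and at −0.088 and −0.12 without 4OHT replicate 2, *Hoxd11* at −0.0052 with equal array medians, and *Haglr* at 0.12 without 4OHT replicate 1 and 0.023 without EtOH replicate 1.

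*Hoxd3os1*, an RNA gene antisense to *Hoxd3* and next to *Hoxd8* in this order of starts, read 6.30 and 6.58 in 4OHT cells, against 6.78 and 6.96 in EtOH cells (−0.42 ± 0.130, limma adjusted p = 0.194). Its other probe set had a log2 fold change of −0.066 (limma adjusted p = 0.816) with overlapping arrays, so that the probe sets of this gene disagree, and their mean gave −0.25. *Mir10b*, the gene of miR-10b shown above, read 3.94 and 3.95 in 4OHT cells, against 4.19 and 4.30 in EtOH cells (−0.30 ± 0.078, limma adjusted p = 0.142), among the lowest values of the arrays. *Mir10a*, whose seed is the same, averaged 4.09 in 4OHT cells and 4.12 in EtOH cells. Over the 10 RNA genes of the clusters measured of 16 listed, none was called and the median was −0.023. Among 1-symbol probe sets *Mir10b* (limma adjusted p = 0.0348) and *Hoxd3os1* (limma adjusted p = 0.0245) passed, in a setting where 2938 of all 21789 passed.

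2 of the 14 measured genes that flank the clusters (14.3%) were called higher in 4OHT cells and none lower, against 1.23% and 2.99% of all genes. Whether this list differs from all genes was not tested. *Skap1*, next to HoxB, encodes an adaptor protein of T-cell receptor signalling and read 10.60 and 10.49 in 4OHT cells, against 9.68 and 9.73 in EtOH cells (0.84 ± 0.078, limma adjusted p = 0.0189). *Calcoco1*, next to HoxC, encodes a coiled-coil coactivator that also serves in autophagy and read 10.15 and 10.18 in 4OHT cells, against 9.49 and 9.50 in EtOH cells (0.67 ± 0.070, limma adjusted p = 0.0238). In both, the treatments were far apart compared with the gaps between arrays. Neither was called as any 1 array was left out (adjusted p = 0.0620 to 0.154 for *Skap1* and 0.0738 to 0.170 for *Calcoco1*) or with the replicate block (0.0828 and 0.0921). Of the 14 flanking genes measured of 15 listed, the other 12 were not called, among them *Skap2* beside HoxA (−0.14), *Evx1* (0.13) and *Evx2* (0.16), the homeobox genes at the tail ends of HoxA and HoxD, and the HoxD neighbours *Lnpk* (0.098) and *Mtx2* (0.086). No gene of HoxB or HoxC itself was called.

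The factors that act with HOX proteins or on the clusters were mostly measured at high levels. Of 24 listed Polycomb genes 22 were measured, 21 of them above the array median. 1 of the 22 (4.55%) was called lower, against 2.99% of all genes, and none higher. This was *Pcgf2*, the 1 gene not above that median (mean 7.12, against 7.13). It encodes a RING-finger subunit of Polycomb repressive complex 1 whose loss in the mouse shifts the expression boundaries of *Hox* genes. *Pcgf2* read 6.76 and 6.51 in 4OHT cells, against 7.68 and 7.54 in EtOH cells (−0.97 ± 0.118, limma adjusted p = 0.0328). Of these values, 6.51 lay under the olfactory receptor limit of 6.59. Both 4OHT arrays were below both EtOH arrays by more than the gaps within a treatment. Its call was lost with the replicate block (adjusted p = 0.0694) and without 4OHT replicate 2 (0.0849), EtOH replicate 1 (0.190) or EtOH replicate 2 (0.173). *Cbx2*, a reader subunit of the same complex, averaged 9.46 in 4OHT cells and 9.09 in EtOH cells (0.38, limma adjusted p = 0.0901). *Ezh2*, the H3K27 methyltransferase, averaged 12.39 in 4OHT cells and 12.24 in EtOH cells (0.16, limma adjusted p = 0.345). The median over the 22 genes was −0.034.

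None of the 12 MLL and elongation factor genes was called, with a median of 0.0021, and all 12 lay above the array median. *Ash2l*, a core subunit of the MLL complexes, was closest to the threshold: it averaged 10.05 in 4OHT cells and 10.53 in EtOH cells (−0.48, limma adjusted p = 0.0507). It passed with equal array medians, with the minimum mean value of 6 and with the intensity trend. It also passed among 1-symbol probe sets, as did *Aff1*, *Wdr5* and, in all, 2938 of 21789 probe sets. *Kmt2a*, which encodes MLL1, averaged 10.62 in 4OHT cells and 10.59 in EtOH cells. None of the 8 TALE cofactor genes measured of 9 listed was called, with a median of 0.064. *Meis1*, the partner of HoxA proteins in leukemia, read 5.88 and 5.95 in 4OHT cells, against 5.80 and 5.86 in EtOH cells, and thus lay below the olfactory receptor limit like *Hoxa9*, whereas *Pbx3* averaged 10.80 in 4OHT cells and 10.72 in EtOH cells. The plot by list shows these genes beside each other.

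**Figure D4:**
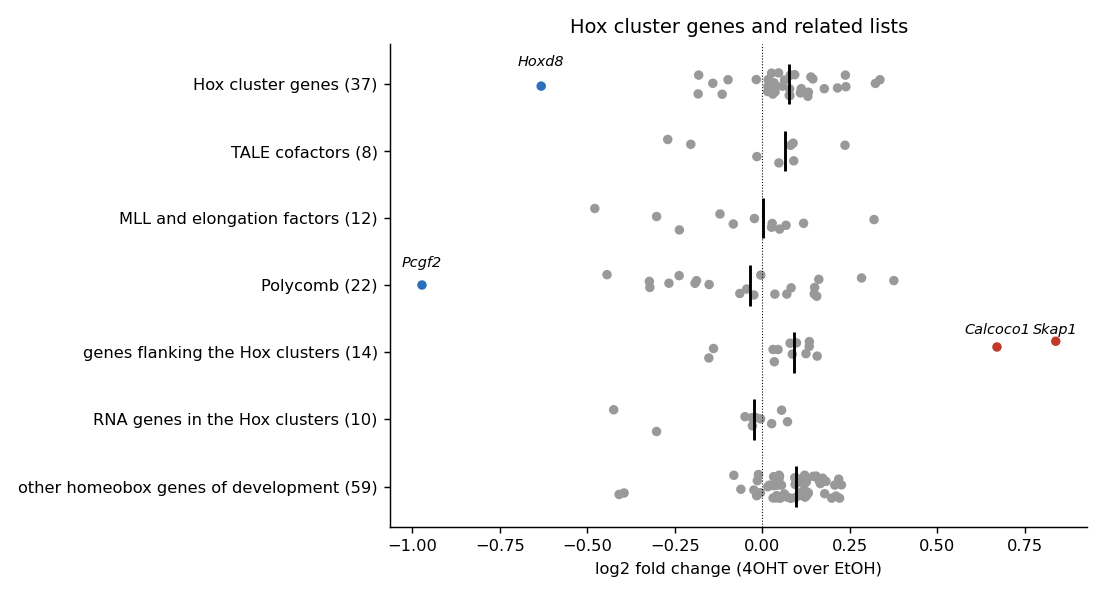
Log2 fold change (4OHT over EtOH) of the *Hox* genes and of the measured genes of each related list, 1 point per gene, with the median of a list as a bar and called genes named and coloured. Beside *Hoxd8*, *Pcgf2* (−0.97), *Calcoco1* (0.67) and *Skap1* (0.84) were called, 3 of the 125 genes of the related lists (1.6% higher and 0.80% lower, against 1.23% and 2.99% of all genes).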

How the data were processed

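Total RNA of ILC87-Ik1-ER cells was hybridised to Mouse Gene ST arrays (Affymetrix), 4 in all. The authors deposited a log2 value for each of 35556 probe sets, made by RMA in Affymetrix Expression Console 1.1 per the submitters' processing notes. RMA subtracts background, brings the probe signals of all arrays to 1 distribution and sums up the probes of a set, so that a change common to most genes is hidden and differences at low signal are compressed. The sources used here do not give the genome build.

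From these log2 values, 4OHT and EtOH arrays (grouped by the sample labels) were compared with limma 3.58.1 in R 4.3.3 (lmFit and eBayes, two-sided, no filter, no block, 2 residual and 2.66 prior degrees of freedom). Benjamini-Hochberg adjustment covered every probe set, and calls were made at an adjusted p under 0.05. Of the probe sets, 21789 name 1 gene, 1621 several and 12146 none. The last 2 kinds were fitted with the rest but left unnamed. Symbols were brought up to date by Entrez number through RefSeq (GRCm38.p6) for 21698 probe sets. A gene was read by its highest-mean probe set.

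Given singly were called *Hox* genes, the 2 highest means of each cluster, the 3 largest differences in each direction and genes above the array median. Other genes, such as *Hoxc10*, illustrate a count and were chosen after their values were seen. The members and the gene lists were chosen with earlier results of these data known. The same replicate numbers in both treatments share nothing in the labels. As alternatives, each array was left out in turn, the replicate number was used as a block, values were quantile-normalized again or shifted to equal medians, dim probe sets (mean under 6) or those without 1 symbol were dropped, and an intensity trend, the mean over a gene's probe sets and other thresholds were tried. The number of arrays limits the precision. On simulated data, the fit was checked for the mean size and sign of planted differences larger than any *Hox* difference here. This does not check the p-values or the calls.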

Additional observations from a re-analysis of the deposited data

How the results depend on the processing

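The *Hoxd8* difference kept its sign in all 12 alternative fits and passed in 6 of them (adjusted p = 4.81e-04 to 0.199 over the 12, limma). It was −0.63 but not called with the replicate block (adjusted p = 0.112) and with the crossed replicate block (adjusted p = 0.0516), and ran from −0.68 to −0.58 as each array was left out, never called. The same-numbered arrays share only a number, and their deviations from the treatment means correlated at −0.134. The crossed pairing was therefore added after seeing the data. The main comparison called 1123 of 35556 probe sets, the replicate block 42 and the crossed block 778. The fit of 1-symbol probe sets called 2938 of 21789, so that calls rose over all probe sets in that setting. The count of *Hox* genes called was 0 with the replicate block, 0 with the crossed block, 0 at an adjusted p under 0.01, 0 to 0 without 1 array, 2 with 1-symbol probe sets and 5 at an unadjusted p under 0.05. The count of related genes called, 3 in the main comparison, was 0 with the replicate block, 2 with the crossed block, 0 at an adjusted p under 0.01, 0 to 1 without 1 array, 4 with equal array medians, 4 with the minimum value, 4 with the intensity trend, 14 with 1-symbol probe sets and 22 at an unadjusted p under 0.05. *Pcgf2* alone was called without 4OHT replicate 1, and none of *Pcgf2*, *Skap1* and *Calcoco1* without another array. Without EtOH replicate 1 or 2, limma called 0 of all probe sets (4902 and 4739 at an unadjusted p under 0.05), and without 4OHT replicate 1 or 2 it called 454 and 107. The lone array is then assumed to vary like those of the other treatment, and fewer arrays leave less power. With the highest olfactory receptor in place of the 95th percentile as the limit, 0 *Hox* genes lay above it. Differences near 0 changed sign, none of them called: *Hoxa7* after another quantile normalization (−0.019), *Hoxd11* after it (−0.020) and with equal array medians (−0.0052), and as each array was left out *Hoxa7* (−0.016 to 0.077), *Hoxb1* (−0.050 to 0.17), *Hoxb9* (−0.063 to 0.13), *Hoxc9* (−0.066 to 0.032), *Hoxc12* (−0.24 to 0.014) and *Hoxd11* (−0.12 to 0.15). *Hoxd10* passed with 1-symbol probe sets. The other 142 values of the *Hox* genes given singly by the rule above, *Hoxd8* left out, kept their sign and side of the threshold. This count leaves out further genes: *Hoxd9* and *Haglr* changed sign, and *Mir10b*, *Hoxd3os1*, *Ash2l*, *Dlx1* and *Lhx9* passed in some settings. Where the number of arrays or probe sets does not differ, the cause was not tested.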

Other observations

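Other homeobox genes of development, which lie outside the *Hox* clusters, held no called gene among the 59 measured of 63 listed. Their median level was 6.85, and 18 lay above the array median. *Dlx1*, a gene of forebrain interneurons and the jaw, read 8.36 and 8.45 in 4OHT cells, against 8.94 and 8.69 in EtOH cells (−0.41, limma adjusted p = 0.157). *Lhx9*, a gene of gonad and limb development, read 6.75 and 6.92 in 4OHT cells, against 7.21 and 7.25 in EtOH cells (−0.39, limma adjusted p = 0.111). The 4OHT arrays of both were the lower ones. Both passed when only probe sets with 1 gene symbol were tested, a setting in which 2938 of all 21789 passed.

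*Lhx2*, a gene of forebrain and hair follicle stem cells, averaged 9.59 in 4OHT cells and 9.46 in EtOH cells, the highest mean of the list. *Tlx1* and *Tlx3*, which are oncogenes of human T-cell leukemia, averaged 6.60 and 6.94 in 4OHT cells, against 6.42 and 6.92 in EtOH cells. *Cdx1*, *Cdx2* and *Cdx4*, which act upstream of *Hox* genes in the embryo, had log2 fold changes of 0.049, 0.11 and −0.011. Of the 59 genes, 49 (83.1%) had a positive value, with a median of 0.097. Values were positive in 57.7% of all genes, in 71.9% of genes within the *Hox* range of levels and in 72.6% of olfactory receptor genes.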
